A study of Homo sapiens and Mus musculus with 21 samples.

Results

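The YTH domain m6A readers are the 5 human genes whose proteins carry a YTH domain, the fold that binds N6-methyladenosine (m6A) in RNA: YTHDF1, YTHDF2, YTHDF3, YTHDC1 and YTHDC2. They were chosen by name from 20050 protein-coding genes of the GRCh38 reference table, and no measured value enters the rule. Together they held 58 of 40768 m6A sites listed in the first PCIF1 knockout (KO) miCLIP library, 66 of 47644 in the second KO library and 59 of 43663 in the wild-type (WT) library. These sites fell on 99 distinct positions: 20 in YTHDF1, 24 each in YTHDF2, YTHDF3 and YTHDC1, and 7 in YTHDC2.

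The study asked what PCIF1, which its title names as the m6Am methyltransferase, does to transcripts of HEK293T, a transformed human embryonic kidney cell line. The groups used were HEK293T with the genotype PCIF1 KO (2 miCLIP, 3 input RNA and 3 ribosome-protected fragment libraries) and HEK293T of wild-type genotype (1 miCLIP, 2 input RNA and 2 ribosome-protected fragment libraries). All were made from polyadenylated RNA, and the 3 miCLIP libraries used the same anti-m6A antibody. The authors' stability ratios, also used here, come from SLAM-seq of both genotypes, with 1 KO and 1 WT library at each chase time. The labels do not say how many clones the KO libraries came from or whether replicates were separate cultures, so the spread between them may be technical. The level of PCIF1 in the KO libraries was not analysed here. miCLIP crosslinks the antibody to RNA, and reverse transcription then leaves substitutions beside methylated adenosines. Each listed site is a position in a DRACH motif, the sequence context of m6A, with its number of reads and its number of substituted reads. The miCLIP comparison of genotypes has 1 WT library and so has no test.

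YTHDF1, YTHDF2 and YTHDF3 are closely related cytoplasmic proteins, and YTHDF2 is best known for bringing the CCR4-NOT deadenylase to methylated mRNA, which is then degraded. YTHDC1 is the nuclear reader, with known roles in splicing and in the export of methylated mRNA, while YTHDC2 is an RNA helicase known above all for its need in meiosis. The transcripts of these readers can themselves carry m6A inside the mRNA, or m6Am at the first transcribed base.

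Of the 5 genes, YTHDC1 and YTHDC2 had a region of the authors' strict m6Am list within 50 nt of their annotated start on the same strand, and YTHDF1, YTHDF2 and YTHDF3 had none. The YTHDC1 region, chr4:68350001-68350100 (GRCh38, minus strand), covered the annotated start at 68350090. Its score of 3.19 ranked 781 among the 2360 regions of the list, whose median score was 2.90. The YTHDC2 region, chr5:113513701-113513750 (plus strand), began 7 nt past the annotated start at 113513694, and its score of 2.26 ranked 2190. The score is the authors' own, and what it is relative to is not stated. With a window of 500 nt the same 2 genes had a region and the other 3 had none. A gene without a region may still have m6Am. The authors' deposited tables class the starts of CNOT1 and IGF2BP1 as m6Am, and neither was counted with a region here. The regions belong to 1 list for the whole series, so they give no KO value.

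The sequences around the annotated starts are shown because m6Am needs an adenosine as the first transcribed base. Each is 30 nt from RefSeq on GRCh38.p14, written 5′ to 3′ on the gene's strand, with the annotated first base in capitals. YTHDC1 is read from chr4:68350071-68350100 (minus strand), YTHDC2 from chr5:113513684-113513713 (plus), YTHDF1 from chr20:63216112-63216141 (minus), and YTHDF2 from chr1:28736614-28736643 and, for a second start, from chr1:28736930-28736959 (both plus).
YTHDC1: agcgcagggcAtttcgggagcgggattgtt
YTHDC2: ttacgcccgcGctcctcgcctggccgtgat
YTHDF1: cgccgctgctGtcgccgccgccgccgccat
YTHDF2: cagagctagtCtttccaggtgttagtcgaa
YTHDF2, second start: ctcttgggctAgagcgtcgccgagtcggag
YTHDC1 had an A at its annotated start and a region over it. YTHDC2 had a G at its annotated start, and its region did not cover that base. YTHDF1 had a G and YTHDF2 a C at the first annotated start, and the second YTHDF2 start had an A but no region. Among 13820 protein-coding genes with a matched start, 10.5% had a region within 50 nt. An A was the annotated first base in 849 of the 1450 genes with a region (58.6%) and in 6191 of the 12370 without.

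m6A inside the transcripts was listed in all 5 genes in all 3 HEK293T libraries. The 3 YTHDF genes and YTHDC1 carried more sites than most genes with a site, and YTHDC2 carried a number close to the median. The number of sites listed in a gene can also depend on its read depth, and these counts were not matched for depth. Among protein-coding genes with at least 1 site, of which there were 9051, 9439 and 9276 in KO replicate 1, KO replicate 2 and WT, the median was 3 sites in each library. Genes at the 90th percentile had 9, 11 and 10 sites in the same order of libraries. YTHDF2 had the most sites of the family, with 16 and 19 in the KO libraries and 18 in WT, and only 200, 179 and 168 genes had more. YTHDF1 had 13 and 17 in KO and 12 in WT. YTHDF3 had 12 and 18 in KO and 12 in WT. YTHDC1 had 13 and 10 in KO and 12 in WT, which overlaps the counts of YTHDF1 and YTHDF3. That overlap depends on sites with few substituted reads. With at least 5 substituted reads YTHDC1 had 5 and 3 sites in KO and 4 in WT. At that setting YTHDF1 had 10 and 11 in KO and 9 in WT, and YTHDF3 had 6 and 9 in KO and 6 in WT. YTHDC2, the longest of the genes at 81591 nt, had 4 and 2 in KO and 5 in WT, below every other member in every library. The WT count lay between or at the edge of the 2 KO counts in YTHDF2, YTHDF3 and YTHDC1, below both in YTHDF1 and above both in YTHDC2.

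**Figure D1:**
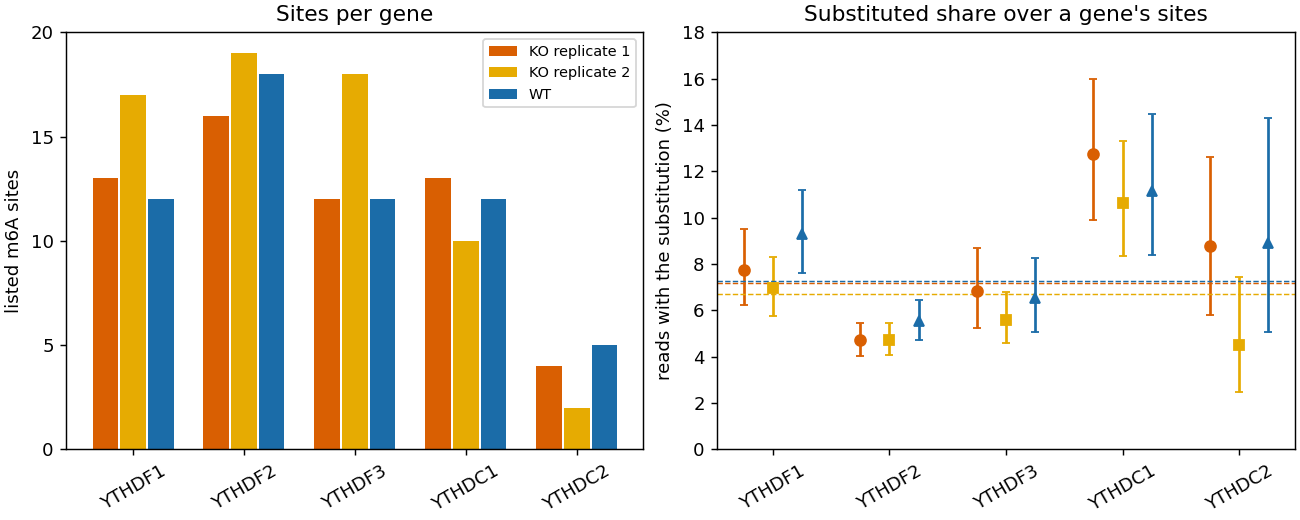
Listed m6A sites per gene (left) and the share of reads with the substitution over those sites, in percent with exact 95% binomial intervals (right), for KO replicate 1, KO replicate 2 and WT, with dashed lines at the share over all listed sites of each library. YTHDF2 has 16, 19 and 18 sites and the lowest share in KO replicate 1 and in WT, while YTHDC2 has 4, 2 and 5 sites.

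The share of substituted reads over a gene's listed sites was lowest in YTHDF2 and highest in YTHDC1 in KO replicate 1 and in WT; in KO replicate 2 YTHDC1 was the highest and YTHDC2 the lowest. Intervals are exact Clopper-Pearson intervals at 95%, and they cover counting error only, as reads need not be independent molecules. In YTHDF2 the share was 4.71% (4.02 to 5.47%) and 4.73% (4.09 to 5.44%) in the KO libraries and 5.53% (4.72 to 6.44%) in WT. In YTHDC1 it was 12.7% (9.92 to 16.0%) and 10.6% (8.36 to 13.3%) in KO and 11.2% (8.37 to 14.5%) in WT. The intervals of these genes did not overlap in any library, while within each gene the KO and WT intervals did. YTHDF1 stood between them at 7.75% (6.24 to 9.49%) and 6.95% (5.77 to 8.29%) in KO and 9.29% (7.63 to 11.2%) in WT. YTHDF3 had 6.83% (5.25 to 8.70%) and 5.60% (4.58 to 6.78%) in KO and 6.53% (5.05 to 8.28%) in WT. YTHDC2 had 8.78% (5.82 to 12.6%) and 4.52% (2.49 to 7.46%) in KO and 8.93% (5.08 to 14.3%) in WT. YTHDF1, YTHDF3 and YTHDC2 overlapped in KO replicates 1 and 2 and in WT, so their order is not settled at this depth. All listed sites together had 7.17% and 6.69% in KO and 7.29% in WT.

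Read depth moved with this order. A listed site needs at least 2 substituted reads, so a site with few reads is listed only when its share is high. The median number of reads at a site was 206 and 193 in KO and 128.5 in WT for YTHDF2, and 22 and 54 in KO and 25.5 in WT for YTHDC1. Over all listed sites it was 37 and 42 in KO and 30 in WT. Each site was therefore set against the median share of all listed sites of the same library whose reads lay within 10% of its own. On that measure YTHDF2 had 9 of 16 and 9 of 19 sites above the median in KO and 8 of 18 in WT, and YTHDC1 had 6 of 13 and 4 of 10 in KO and 4 of 12 in WT. Neither gene was placed at the low or high end among sites of like depth. YTHDF1 had more than 50% of its sites above in each library, with 8 of 13 and 11 of 17 in KO and 8 of 12 in WT. Over the 5 genes the counts were 31 of 58 and 34 of 66 in KO and 27 of 59 in WT.

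The sites lay in a few tight blocks of each gene. Positions are those listed in the files. At all 593 listed positions that fall in the promoter sequences, the listed base was the C just 3′ of the motif's adenosine, so the methylated base lies 1 nt upstream. No other gene of the reference table lies in any of the 5 spans, and all sites of a gene were on 1 strand. Exon and UTR borders were not used here, so sites are placed by distance from the gene's ends.

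**Figure D2:**
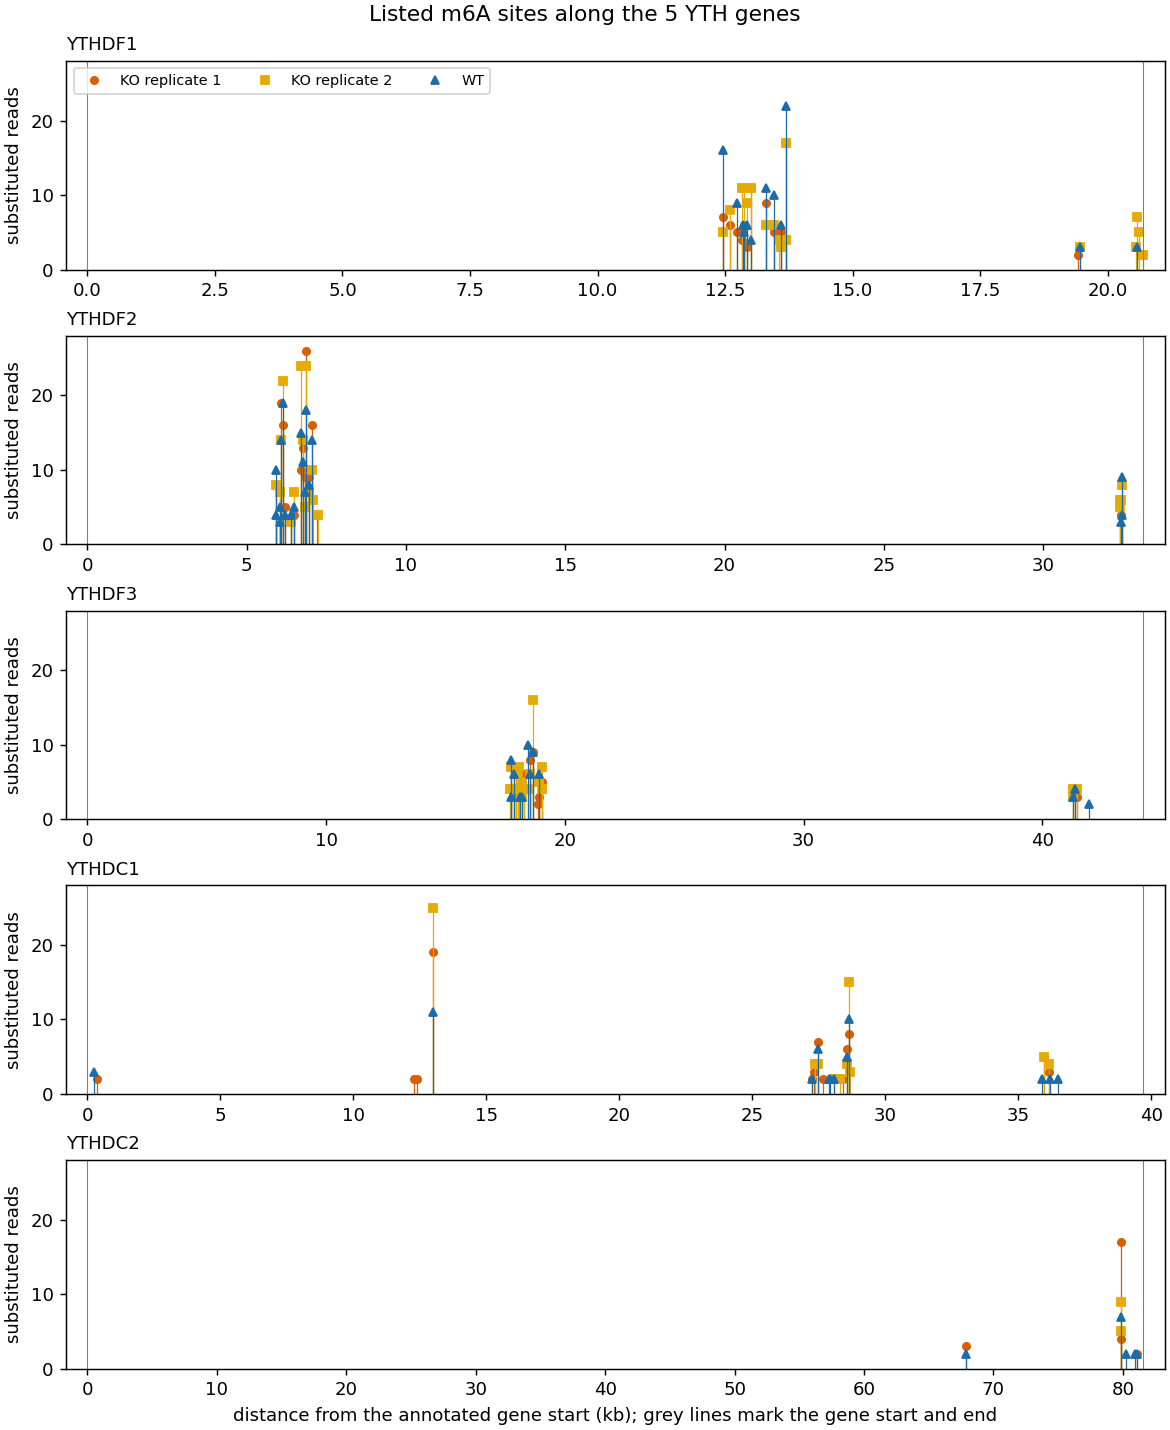
Positions of listed m6A sites along each of the 5 genes, by distance from the annotated gene start in kb, with the number of substituted reads at each as its height, in KO replicate 1, KO replicate 2 and WT. Each YTHDF gene has 1 block of 14 to 19 positions in little more than 1 kb, and YTHDC2 has 6 of its 7 positions near the far end of the gene; markers of equal height cover each other.

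YTHDF1, a cytoplasmic reader known for its link to translation, spans chr20:63195429-63216131 on the minus strand. Of its 20 positions, 14 lay in chr20:63202428-63203669, a block of 1242 nt that held 12 sites in each KO library and 10 in WT, and 4 more lay within 151 nt of the gene end. The site with the most substituted reads, at 63202428 in an aaAct motif (the methylated A in capitals here and below), had 17 of 194 reads substituted in KO replicate 1, 17 of 226 in KO replicate 2 and 22 of 208 in WT. Those are 8.76% and 7.52% in KO and 10.6% in WT, so WT was the highest of the 3 by a small margin. The site at 63203669, in ggAca, had 7 of 71 and 5 of 79 reads in KO and 16 of 84 in WT. Its share was 9.86% (4.06 to 19.3%) and 6.33% (2.09 to 14.2%) in KO and 19.0% (11.3 to 29.1%) in WT. The WT interval overlapped both KO intervals. At 63203130, also ggAca, the order was the other way round, with 12.4% and 9.32% in KO and 6.06% in WT.

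YTHDF2, the decay reader, spans chr1:28736624-28769775 on the plus strand. Of its 24 positions, 19 lay in chr1:28742530-28743854, 1325 nt long, with 14 and 15 sites in KO and 15 in WT. The other 5 lay in the 81 nt of chr1:28769033-28769113, which end 662 nt before the gene end. The leading site, 28743482 in tgAct, was read deeply, with 26 of 499 and 24 of 515 reads substituted in KO and 18 of 379 in WT. Its share of 5.21% and 4.66% in KO and 4.75% in WT was nearly the same in the 3 libraries. The ggAca site at 28742772 had 16 of 288 and 22 of 311 reads in KO and 19 of 224 in WT, which is 5.56% and 7.07% in KO and 8.48% in WT. The gaAcc site at 28743338 had 9.17% and 14.7% in KO and 11.6% in WT, so the 2 KO libraries lay on either side of WT.

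YTHDF3, the third cytoplasmic paralogue, spans chr8:63168553-63212788, and its strand was taken from its sites, all on the plus strand. Its start, its distances and the lack of an m6Am region on its strand rest on that. A block of 1340 nt, chr8:63186274-63187613, held 18 of its 24 positions, with 10 and 15 sites in KO and 9 in WT. The remaining 6 positions lay in chr8:63209822-63210510, at least 2278 nt before the gene end. The site at 63187235 had 9 of 167 and 16 of 174 reads substituted in KO and 9 of 157 in WT. Its share was 5.39% and 9.20% in KO and 5.73% in WT. At 63186285, 7 of 69 and 7 of 107 reads were substituted in KO and 8 of 75 in WT, which is 10.1% and 6.54% in KO and 10.7% in WT, lower in both KO libraries with overlapping intervals. The site at 63187112 had 16.7% and 8.33% in KO and 9.68% in WT, with the KO libraries on both sides of WT.

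YTHDC1, the nuclear reader, spans chr4:68310387-68350090 on the minus strand, and its positions fell into 4 blocks, the most of any member: 2 positions near the gene start, 3 in chr4:68337094-68337829, 13 in chr4:68321429-68322853 and 6 in chr4:68313582-68314195. The position nearest to the start, 68349852, lay 238 nt from it, outside the m6Am region, and was listed in WT alone with 3 of 71 reads. The leading site, 68337094 in tgAct, had 19 of 118 and 25 of 157 reads substituted in KO and 11 of 108 in WT. Its share was 16.1% (9.98 to 24.0%) and 15.9% (10.6 to 22.6%) in KO and 10.2% (5.20 to 17.5%) in WT, higher in both KO libraries with overlapping intervals. The ggAct site at 68321441 had the highest share of any site of the family listed in all 3 libraries, 28.8% in KO replicate 2, with 14.0% in KO replicate 1 and 24.4% in WT. It rested on 57 and 52 reads in KO and 41 in WT. The ggAct site at 68322620 had 7 of 50 and 4 of 56 reads substituted in KO and 6 of 47 in WT, with the 2 KO shares of 14.0% and 7.14% on either side of 12.8% in WT.

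YTHDC2, the helicase, spans chr5:113513694-113595284 on the plus strand. Of its 7 positions, 6 lay in chr5:113593536-113594795, between 489 and 1748 nt from the gene end. The aaAct site at 113593546 was the 1 site of this gene present in all 3 lists, with 17 of 151 and 9 of 174 reads substituted in KO and 7 of 118 in WT. The shares were 11.3% and 5.17% in KO and 5.93% in WT, so KO replicate 1 stood above the other libraries. A tgAct site 10 nt upstream, at 113593536, had 4 of 121 and 5 of 136 reads in KO and was not listed in WT. The gaAca site at 113581555, the 1 position outside the block, had 3 of 18 reads in KO replicate 1 and 2 of 11 in WT and was not listed in KO replicate 2.

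Few of the family's sites lay within 2000 nt of the annotated gene end. Within 2000 nt of the end lay 10.3% and 16.7% of the family's sites in KO (6 of 58 and 11 of 66) and 15.3% in WT (9 of 59). Over all protein-coding genes the share was 35.5% in both KO libraries and 34.8% in WT. YTHDC2 differed from the others, with 3 of 4 and 2 of 2 sites there in KO and 4 of 5 in WT. YTHDF3 and YTHDC1 had 0 there in each library. Their last blocks came to 2278 and 3195 nt from the end, so these counts of 0 depend on the 2000 nt cutoff. Sites of 1 gene share its end, so these counts describe 5 genes and were not tested.

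The 30 positions listed in all 3 libraries allow the same bases to be set side by side: 12 in YTHDF2, 8 in YTHDF1, 5 in YTHDF3, 4 in YTHDC1 and 1 in YTHDC2. Over them, the substituted share was 7.03% (6.27 to 7.86%) and 6.40% (5.72 to 7.13%) in KO and 7.60% (6.76 to 8.50%) in WT. Over all 11576 such positions of the series it was 6.43% and 6.30% in KO and 6.46% in WT. The share was lower in both KO libraries than in WT at 10 of the 30, against 34.7% of all such positions. It was higher in both KO libraries at 4 of the 30, against 31% of all. The first count is close to the background and so is no result about the YTH genes, and the second is below it, with 30 positions in 5 genes and no test. The 10 lower positions were 4 in YTHDF1, 4 in YTHDF2 and 2 in YTHDF3, and the 4 higher ones were 2 in YTHDF1 and 1 each in YTHDF2 and YTHDC1. At 0 of the 30 positions did the interval of either KO library lie clear of the WT interval, and at 0 did the 2 KO intervals lie clear of each other. The same counts were not made over all 11576 positions, so they are no result about the YTH genes. The largest gap between both KO libraries and WT was in YTHDF1 at 63202674, a ggAca site with 9.80% (3.26 to 21.4%) and 9.84% (3.70 to 20.2%) in KO and 23.8% (12.1 to 39.5%) in WT, from 51 and 61 reads in KO and 42 in WT.

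**Figure D3:**
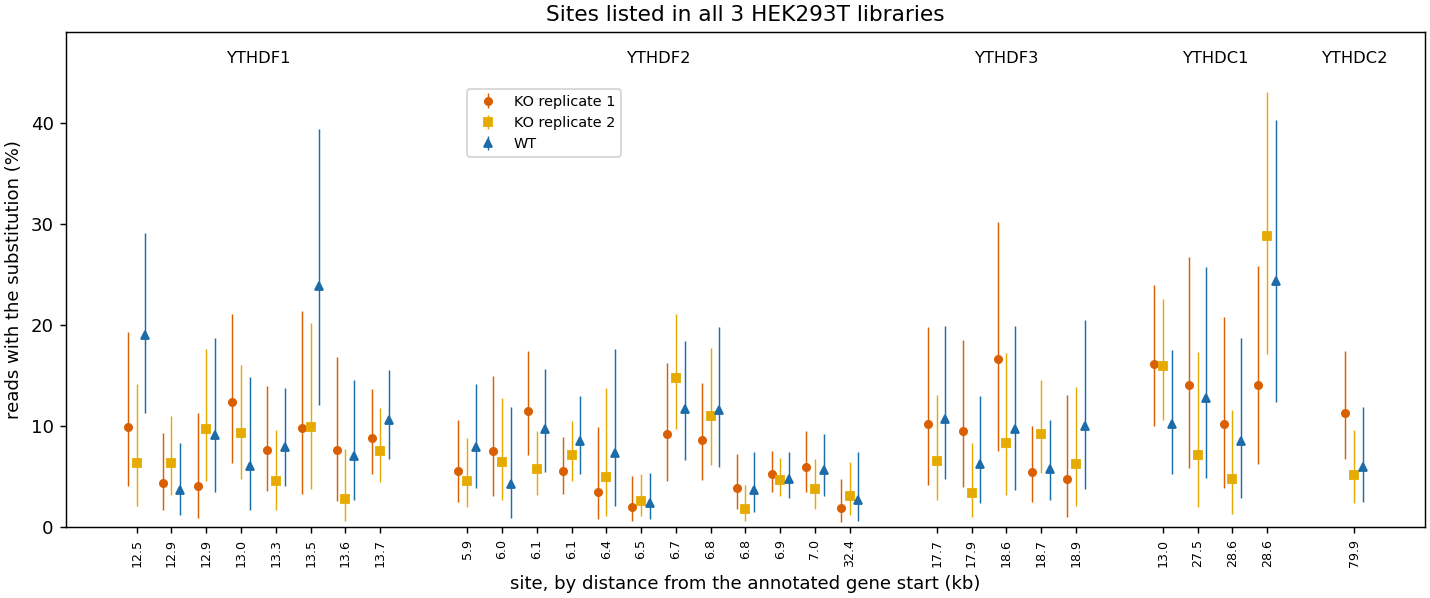
Share of reads with the substitution, in percent, at the 30 positions listed in all 3 libraries, in order along each gene and labelled by distance from the annotated start. Points are KO replicate 1, KO replicate 2 and WT, and bars are exact 95% binomial intervals. At 0 positions does a KO interval lie clear of the WT interval, a count that was not made over the positions of other genes.

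The number of reads at these positions, scaled by the reads at all positions listed in the 3 libraries, was also compared. More reads can mean more transcript or better recovery by the antibody, and these cannot be told apart here. In YTHDF2 the scaled reads were 1.21 and 1.10 times WT in KO replicates 1 and 2, and in YTHDC2 they were 1.27 and 1.19 times WT. YTHDC1 had 1.10 and 1.11 times WT. YTHDF1 had 0.957 and 0.971 times WT, and YTHDF3 had 0.925 and 0.991. Among 2553 genes with at least 100 WT reads, the central 90% ran from 0.642 to 1.45 in KO replicate 1 and from 0.725 to 1.31 in KO replicate 2. All 5 genes lay inside that range in both KO libraries.

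Whether a site was listed again in another library followed its number of substituted reads. Of the 59 WT sites of the family, 38 (64.4%, 50.9 to 76.4%) were listed in KO replicate 1 and 38 in KO replicate 2. Over all WT sites 37.4% and 42.4% were. Between the KO libraries, 38 of 58 sites of KO replicate 1 (65.5%) were listed in KO replicate 2, against 43.9% of all its sites, and 38 of 66 sites of KO replicate 2 (57.6%) were listed in KO replicate 1, against 37.6%. The WT share of 64.4% lay between these KO values. Of WT sites with at least 10 substituted reads, 13 of 14 were listed in KO replicate 1 and 14 of 14 in KO replicate 2, against 91.1% of all such sites for KO replicate 1 and 3108 of 3273 for KO replicate 2. With 5 to 9 substituted reads, 16 of 18 and 14 of 18 were, against 63.2% and 70.9% of all such sites. With 2 to 4 substituted reads, 9 of 27 and 10 of 27 were, against 24.1% and 28.3%. At 2 to 9 substituted reads the family's WT sites were thus listed again somewhat more often than others, which was not tested. Of the 99 positions, 12 were listed in KO replicate 1 alone, 20 in KO replicate 2 alone, 8 in both KO libraries and not in WT, and 13 in WT alone. The 45 positions found in 1 list had a median of 3 substituted reads, and none had more than 9.

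GGAC, a well-known core of m6A sites, made up 36.2% and 40.9% of the family's sites in KO and 37.3% in WT, near the 34.4%, 34.4% and 34.0% of all sites. In the family the substituted share was 7.90% (6.76 to 9.15%) at GGAC and 5.65% (4.96 to 6.40%) at other motifs in KO replicate 1. In KO replicate 2 it was 6.45% (5.60 to 7.38%) at GGAC and 5.43% (4.84 to 6.08%) at others, and in WT 8.91% (7.68 to 10.3%) at GGAC and 5.95% (5.20 to 6.78%) at others. GGAC sites were higher in each library, with intervals that overlapped in KO replicate 2 alone. All listed sites had the same order: 7.69% at GGAC against 6.88% at others in KO replicate 1, 7.26% against 6.39% in KO replicate 2, and 7.73% against 7.04% in WT.

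The main blocks of YTHDF2 and YTHDF3 had sites at nearly the same spacing. Counted from 28742541 in YTHDF2 and from 63186285 in YTHDF3, 8 pairs of positions with the same 5-base motif lined up to within one 30 nt window. Their distances in YTHDF2 and in YTHDF3 were 0 and 0, 153 and 156, 231 and 234, 486 and 480, 559 and 559, 1125 and 1140, 1163 and 1178, and 1313 and 1328 nt. Any other window held at most 2 such pairs for these genes. YTHDF1 and YTHDF3 had 4 pairs in their fullest window and 3 in the next, and every other pair of members had at most 2. The window was chosen after the positions were seen, so this is a description with no test. How reads that match both paralogues were handled is not given in the sources used here, and reads of near-identical stretches could be placed on either gene.

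**Figure D4:**
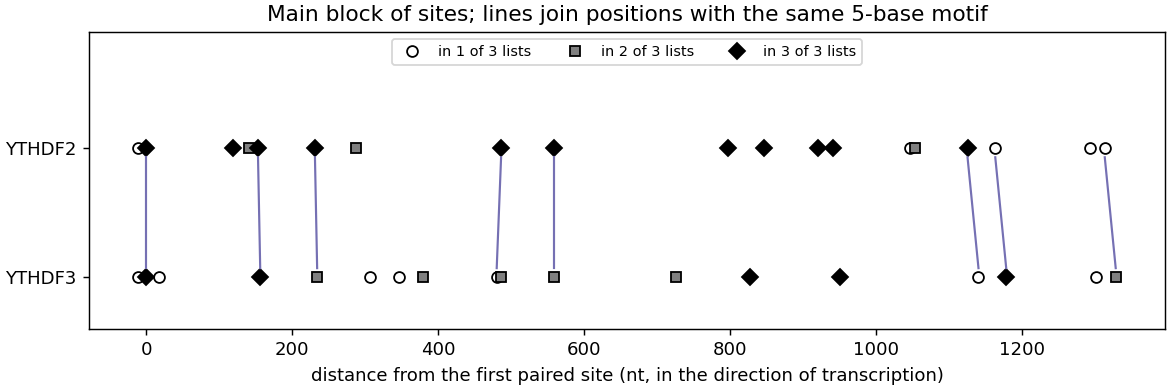
Positions listed in the main blocks of YTHDF2 (upper row) and YTHDF3 (lower row), by distance in nt from the first paired position, with lines that join positions of the same 5-base motif and markers for the number of lists that hold each. The YTHDF2 and YTHDF3 positions form 8 pairs that differ by 0 to 15 nt in distance.

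The other genes of the m6A pathway also carried sites. At least 1 site was listed in 12 and 10 of 12 genes for m6A methyltransferases and the writer complex in KO and in 10 in WT, in both demethylase genes (FTO and ALKBH5) in every library, and in 12 of 12 other m6A-binding genes in every library. Of 15 genes for known YTHDF2 decay partners, 13 and 12 had a site in KO and 13 in WT, and of 10 genes for known YTHDC1 nuclear partners, 9 and 10 did in KO and 8 in WT. Of 3 genes for YTHDC2 partners, 0 and 1 did in KO and 1 in WT. Over all protein-coding genes, 45.1% and 47.1% had a site in KO and 46.3% in WT. Those shares cover all 20050 genes whatever their expression in HEK293T, and the lists were not matched to them for expression. The YTH genes had a median of 13 and 17 sites in KO and 12 in WT, above the methyltransferase and writer complex genes with 7 and 7 in KO and 7.5 in WT and the other binders with 3.5 and 4 in KO and 3.5 in WT. These medians come from lists of different genes and were not tested, and the site counts of their genes overlapped. In the writer complex list WTAP had 15 and 13 sites in KO and 14 in WT. VIRMA had 13 and 19 in KO and 15 in WT, and RBM15 had 14 and 18 in KO and 17 in WT. ZCCHC4, METTL5 and TRMT112 of the same list had 0 or 1 in each library. RBM15B, an RNA-binding subunit of the methyltransferase complex, had 15 and 24 sites in KO and 24 in WT, and PRRC2A, a cytoplasmic m6A-binding protein, had 20 and 30 in KO and 27 in WT.

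The m6Am list named 8 of the 10 YTHDC1 nuclear partner genes within 50 nt of their start: ALYREF, KHDRBS1, NXF1, SAFB, SAFB2, SRSF10, SRSF3 and THOC2. These encode splicing, chromatin and mRNA export factors. It named 3 of the 9 methyltransferase and writer complex genes with a matched start (METTL3, METTL16 and ZC3H13) and 4 of 9 other binders. It also named 2 of 10 YTHDF2 decay partners and 0 of the YTHDC2 partners, beside the 10.5% of all genes. The authors' deposited tables class the starts of CNOT1 (a decay partner) and IGF2BP1 (another binder) as m6Am. Neither was counted with a region here, so these counts do not cover every m6Am start. Of the YTH genes, 2 of the 4 with a matched start had a region. The 10.5% covers genes whatever their expression in HEK293T. These shares were not compared among genes of like expression and were not tested, so they show no property of the lists.

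RNA levels and ribosome occupancy of the 5 YTH genes were not analysed here, as the count tables name genes by Ensembl identifiers and the reference tables used here link none of the 5 to one. The authors' translational efficiency and stability tables, with 765 and 666 entries, list 0 of the 5. The level of the partner genes could be read for 17 of 54, those that the authors' tables name. Input libraries held 4511687 to 5842630 counts in KO and 5386307 and 5960674 in WT. edgeR's quasi-likelihood test called 5 of 14629 genes, all lower in KO (percent called 0.0342), with 1360 genes at an unadjusted p under 0.05 and 15 calls by DESeq2. Leaving out WT replicate 2 gave 1912 calls and leaving out WT replicate 1 gave 53, while 2 to 8 were called when any KO library was dropped. With the low-count filter and all libraries in, this edgeR fit called 0 of the 17 partners.

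IGF2BP1, an m6A-binding protein known to stabilise mRNA, had 635, 618 and 630 CPM (counts scaled to library size) in KO input and 913 and 697 in WT. All KO libraries lay below both WT libraries, with a log2 fold change of -0.36 (SE 0.10) and an edgeR adjusted p of 0.449. With no filter on low counts, edgeR called IGF2BP1 at the same fold change of -0.36, with an adjusted p of 0.0173. That setting called 152 of 30638 genes. CNOT1, the scaffold of the CCR4-NOT deadenylase, had 430, 424 and 403 CPM in KO and 599 and 392 in WT, so the groups overlapped (log2 fold change -0.24, SE 0.14, edgeR adjusted p 0.595). KHDRBS1, a nuclear splicing factor that binds YTHDC1, had 224, 229 and 198 CPM in KO and 301 and 214 in WT, again with overlap (log2 fold change -0.25, SE 0.13, edgeR adjusted p 0.568). FTO, the demethylase, had a log2 fold change of -0.11 (SE 0.13, edgeR adjusted p 0.837). The WT libraries differed in these genes. Without WT replicate 1 the log2 fold change was -0.15 for IGF2BP1, 0.15 for FTO, 0.02 for KHDRBS1 and 0.10 for CNOT1. Without WT replicate 2 it was -0.44 for KHDRBS1, -0.49 for CNOT1, -0.51 for IGF2BP1 and -0.29 for FTO. Either fit leaves a lone WT library, assumed to vary like the KO libraries, so no call of these genes is read from it.

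In ribosome-protected fragments, 0 of 785 genes were called by edgeR (percent called 0), with 30 at an unadjusted p under 0.05 and 0 calls by DESeq2, and 0 to 3 were called when 1 library was left out. These libraries were shallow, with 46193 to 124580 counts in KO and 17665 and 61816 in WT. For translational efficiency, fragments relative to input, edgeR called 0 of 785, with 56 at an unadjusted p under 0.05, 2 calls by DESeq2 and 14 calls without WT replicate 2. Of 12 partners, 0 were called and 9 had a log2 difference above 0, beside 400 of all 785 genes. UPF1, an RNA helicase of mRNA decay that binds YTHDF2, had 1215, 743 and 924 CPM of the listed genes in KO fragments and 914 and 437 in WT. Its input was 461, 466 and 482 CPM in KO and 425 and 458 in WT. The groups overlapped in fragments, and the log2 difference in translational efficiency was 0.77 (SE 0.34, edgeR adjusted p 0.608). It was 0.06 without WT replicate 2, 1.23 without WT replicate 1 and 0.50 without KO replicate 1. ALYREF, an mRNA export adaptor, had 1433, 1366 and 1378 CPM in KO fragments and 1182 and 1036 in WT, with a log2 difference in efficiency of 0.55 (SE 0.23, edgeR adjusted p 0.608). Its KO fragment libraries all lay above both WT libraries, and the difference in efficiency was 0.31 without WT replicate 2. In the authors' deposited table the log2 fold changes in efficiency were 0.70 for UPF1 and 0.52 for ALYREF, each with an adjusted p of 0.544. SRSF3, a splicing factor known to bind YTHDC1, had -0.49 in the authors' deposited table, with an adjusted p of 0.513. HNRNPC, a nuclear m6A-dependent RNA-binding protein, had a log2 difference of -0.31 (SE 0.33, edgeR adjusted p 0.832), and it was 0.86 without WT replicate 2. LRPPRC, a mostly mitochondrial RNA-binding protein, had a log2 fold change in fragments of 0.28 (SE 0.30, edgeR adjusted p 0.936), which was -0.0035 without WT replicate 1.

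The authors' deposited stability table comes from SLAM-seq, with 1 KO and 1 WT library at each chase time. How the ratio was computed from these libraries is not stated. The table gives 1 KO over WT ratio per gene without replicates, with a median of 0.891 and a central 90% from 0.384 to 1.94. HNRNPC stood at 0.339 in the authors' deposited table, below that range. In the same deposited table CNOT6 and CNOT8, deadenylase subunits of CCR4-NOT, had 0.676 and 1.19, FMR1 and FXR1, related RNA-binding proteins, had 0.754 and 1.76, and FTO had 1.07. These 5 lay inside the range, on both sides of the median.

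Of 8 markers of HEK293T, 5 and 6 had a site in KO and 8 in WT. NEFM and GATA3 had 0 in both KO libraries, with 5 and 1 sites in WT, and NEFL had 0 and 3 in KO and 2 in WT. IRS4, which HEK293 cells are known to express, had 58 and 60 sites in KO and 69 in WT and 439 to 513 CPM in KO input against 497 and 561 in WT. LIN28B had 27.3 to 30.8 CPM in KO input and 19.3 and 22.1 in WT (edgeR adjusted p 0.513). VIM had 344 to 372 CPM in KO input and 341 and 378 in WT. In fragments VIM had 3590 to 4320 CPM in KO and 2150 and 2509 in WT (efficiency log2 difference 0.79, edgeR adjusted p 0.457). Of 10 fibroblast markers, 2 and 0 had a site in KO and 3 in WT, and of 9 blood markers, 0 and 1 in KO and 0 in WT. The 2 miCLIP libraries of mouse embryonic fibroblasts list 37141 and 38455 sites, and the mouse YTH genes were not analysed here, as no mouse gene positions were used.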

How the data were processed

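The rule for the members uses names alone, but the members and lists were chosen with earlier results of these data known. The authors' deposited m6A lists give single positions called per library, with read counts and substituted read counts. The deposited tables of input RNA and of ribosome-protected fragments are raw counts per gene, per the file headers. The deposited m6Am list has a score per region. The authors' deposited tables give a log2 fold change, a normalized signal, and p-values for translational efficiency, and a ratio for stability. The submitters' processing notes give no roles for the tools (bedtools, deepTools, STAR, BWA 0.7.17) or the builds (mm10, GRCh38, hg38) they name. Duplicate handling is not given in the sources used here.

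Sites were assigned by gene span (RefSeq, GRCh38.p14) and strand, in Python 3.11.15 (scipy 1.17.1, numpy 2.4.6, pandas 2.3.3), and plotted with matplotlib 3.10.9. Blocks were split at gaps over 1000 nt. Counts were fitted over whole tables with edgeR 4.0.16 in R 4.3.3 (TMM, filterByExpr on the input, quasi-likelihood test, Benjamini-Hochberg, threshold 0.05), and DESeq2 1.42.0 was an alternative. Translational efficiency was the interaction of genotype and library kind. On simulated counts, 97% of 200 genes changed 4-fold were recovered in the input table of 14629 genes and 97% in the fragment table of 785. Unchanged genes made up 5.83% of the calls in the input and 2.02% in the fragments. Libraries of a genotype were drawn around the same means, with no library set apart. Smaller changes, like those of the partner genes, were not simulated, so these shares do not measure the power to find them. Named sites are the 3 with the most substituted reads per gene, with others chosen after their values were seen (YTHDF1 63202674 and YTHDC1 68349852). Named partner genes have the smallest p of their list, and UPF1, ALYREF and those of the deposited tables follow from the same lists. The rule for genes most like each member was not applied, as it needs their RNA levels. Left out were SLAM-seq values per time.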

Additional observations from a re-analysis of the deposited data

How the results depend on the processing

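The YTH genes held 34 and 42 sites in KO and 32 in WT with at least 5 substituted reads, and 49 and 64 in KO and 50 in WT with at least 20 reads, and 2 had an m6Am region under each setting tried. The input count of calls was 15 with DESeq2, 3 with the replicate block, 152 with no filter and 2 to 1912 when 1 library was left out (1912 without WT replicate 2, 53 without WT replicate 1, 2, 8 and 3 without KO replicates 1, 2 and 3). The fragment count was 6 with the replicate block and 0 to 3 with 1 library left out. The efficiency count was 2 with DESeq2, 0 to 14 with 1 library left out (14 without WT replicate 2), 0 with the replicate block and 0 with a block for each input and fragment pair, an alternative chosen after seeing the data. The cause was not tested. With 1 library left out, the log2 fold change in the input ran from -0.29 to 0.15 for FTO, from -0.44 to 0.021 for KHDRBS1 and from -0.49 to 0.10 for CNOT1, the fragment value of LRPPRC from -0.0035 to 0.82 and the efficiency of HNRNPC from -0.77 to 0.86; the positive input values came without WT replicate 1, the negative one of LRPPRC likewise, and the positive one of HNRNPC without WT replicate 2. Of the values of named partner genes under alternatives, 87 kept direction and side of the threshold and 5 turned. IGF2BP1 passed the threshold with no filter, where 152 of 30638 genes were called. The rest came without WT replicate 2, and the side of the threshold is not read from a fit with 1 WT library. The replicate numbers were not shown to pair the samples, with same-number KO and WT correlations of 0.16 and -0.003 in the input and 0.19 and 0.21 in the fragments, over 2 shared numbers. One WT miCLIP library and few reads per site limit what can be detected.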
